A study of Rattus norvegicus with 6 samples.

Results

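Small nucleolar RNAs (snoRNAs) are short, stable RNAs of the nucleolus that guide the chemical modification and cleavage of other RNAs, mainly ribosomal RNA. Box C/D snoRNAs bind fibrillarin and its partner proteins and guide 2′-O-methylation, while box H/ACA snoRNAs bind dyskerin and its partners and guide pseudouridylation. Most are released from introns of other genes, so a snoRNA and its host gene can share a promoter and still reach different levels, and a few, such as U3 and U8, are needed for cleavage of the ribosomal RNA precursor. The neuronal SNORD115 and SNORD116 snoRNAs come as many near-identical copies from one imprinted locus, next to Snurf and Snrpn.

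The snoRNA genes described here were chosen by their raw counts, as rows of the count table with the biotype snoRNA and at least 10 counts in at least 3 of the 6 samples. This rule held for 209 of the 537 snoRNA rows, out of 25689 genes in the table. The samples were primary neurons isolated from the dorsal root ganglia (DRGs) of both sides at L1-L2, from spontaneously hypertensive rats (SHRs) labelled as wild type and 6 to 8 weeks of age, although the methods of the study give an older age at purchase. Of the 6 samples, 3 were taken 4 weeks after the perirenal adipose tissue had been ablated (PRATA) and 3 after a sham operation, and in all of them glial cells were depleted by differential adhesion to the dish. Below, the values of a group are given in the order of replicates 1, 2 and 3. The labels do not say whether the 3 samples of a group came from separate animals or pools, so the p-values measure the spread between these samples only, which may be technical.

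The libraries were made from total RNA with a stranded kit that cleaves ribosomal RNA fragments and selects fragments with beads, which is not a small RNA protocol. Total counts ranged from 5892967 in sham replicate 2 to 15226952 in sham replicate 1, and 3 counts corresponded to 0.197 to 0.509 CPM (counts scaled to a common library size by TMM, the trimmed mean of M values). All 13 sensory neuron markers were measured and none of them was at 0 in every sample, while satellite glial markers summed to 3175 to 6081 CPM after PRATA and 4225 to 8284 CPM in the sham samples, so the neurons were not free of glia. A row cannot separate a mature snoRNA from unspliced host RNA that covers it, and in bulk RNA fewer cells of a type and less RNA per cell cannot be told apart.

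By name, 57 of the 209 rows were box C/D snoRNAs, 37 were box H/ACA snoRNAs and 1 was a small Cajal body RNA (Scarna10), while 114 carried clone or predicted names that give no class. The rows held 179 distinct names. In all 6 samples, 132 rows had at least 10 counts, 21 rows reached this count in exactly 3 samples, and 0 rows were included through the samples of 1 group alone. At the edge of the rule, 8 rows had a third-highest count of 10, among them SNORD96, SNORA74 and a pair of SNORD36 rows, and 13 rows outside it had a third-highest count of 9, among them SNORD58 and Snord92. The test across all genes could be applied to 202 of the 209 rows. The other 7 rows (AC129405.1, Gm22711, AC111292.2, SNORA71, SNORD36, SNORA74 and SNORD83) did not reach the count filter of that test.

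Reads were unevenly spread over the rows. The 8 rows with the most counts held 36.3% of all 188064 snoRNA counts. AABR07030184.1, a row named after its clone, had 926, 1373 and 3604 counts after PRATA and 5529, 250 and 1265 counts in the sham samples. The next was a copy of U3 (ENSRNOG00000055743), the snoRNA needed for the first cleavages towards 18S ribosomal RNA, with 1002, 1857 and 3151 counts after PRATA and 4081, 1103 and 410 counts in the sham samples. Both rows were highest in PRATA replicate 3 and sham replicate 1, one sample of each group. The ranges of Snord17 and SNORD22 were narrower. Snord17 lay at 113, 162 and 156 CPM after PRATA and 203, 100 and 117 CPM in the sham samples. SNORD22 (ENSRNOG00000056397) lay at 145, 146 and 130 CPM after PRATA and at 156, 105 and 108 CPM in the sham samples. In both, the range of the PRATA samples lay inside that of the sham samples. Among the 27 rows that matched a single RefSeq snoRNA by name, with lengths of 71 to 328 bases, longer snoRNAs had higher CPM (Spearman's rho 0.753 across genes, which are not independent and share the same libraries). Whether length itself or abundance gave this correlation was not tested. The counts were not corrected for length, so they are not read as numbers of molecules.

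The question of the study was how PRATA changed the transcripts of these neurons. Summed over the 209 rows, the snoRNA level was 3433, 2711 and 2884 CPM after PRATA and 3904, 1961 and 2069 CPM in the sham samples. Sham replicate 1 was the highest of all 6 samples, while sham replicates 2 and 3 were the lowest, so the groups overlapped. The share of all counts on these rows was 0.327%, 0.279% and 0.283% after PRATA and 0.371%, 0.213% and 0.205% in the sham samples. Row by row the order was similar. Of 209 rows, 104 were highest in sham replicate 1 and 86 in PRATA replicate 1, while 80 were lowest in sham replicate 2 and 71 in sham replicate 3. Sham replicate 1 lay above both other sham samples in 180 rows (86.1%), beside 34.4% of all genes tested, and its median fold over their mean was 1.99 for snoRNA rows and 0.984 for all genes tested. PRATA replicate 3 did not show such a shift over all snoRNA rows, with a median fold of 0.858 over PRATA replicates 1 and 2, beside 1.02 for all genes tested.

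**Figure D1:**
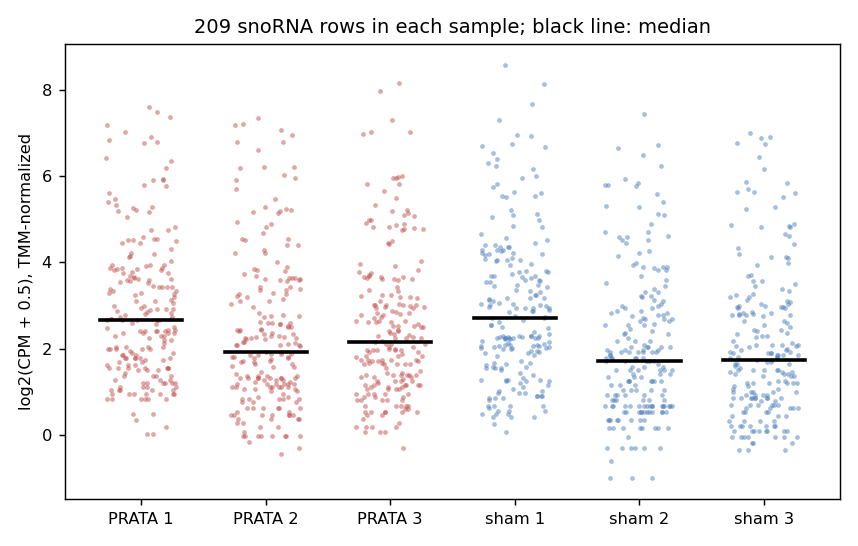
Level of each of the 209 snoRNA rows (points) in each of the 6 samples, as log2 of TMM-normalized CPM plus 0.5, with the median as a black line. The medians of sham replicate 1 (6.08 CPM) and PRATA replicate 1 (5.81 CPM) lie above those of the other 4 samples, which range from 2.81 to 3.95 CPM.

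Compared row by row, most snoRNAs were not distinguishable between PRATA and sham. Of the 202 rows tested, 5 were higher after PRATA past an unadjusted p under 0.05 and a log2 fold change over 1, where 1.17% of all 14919 genes tested were called, and 0 were lower past the same thresholds, where 3.23% of all genes were called. Without the fold limit, 6 rows were higher, beside 8.19% of all genes, and 1 was lower, beside 10.1% of all genes. After Benjamini-Hochberg adjustment of the edgeR quasi-likelihood test over all genes, 0 rows were under 0.05 (0.0% of all genes were), and the smallest adjusted p among the snoRNA rows was 0.171. DESeq2 gave 2 rows at an adjusted p under 0.05, limma voom with sample weights gave 1 and limma-trend gave 0. The shares of all genes in these alternative fits were not counted, so these counts have no background beside them. The median log2 fold change was 0.17 for the snoRNA rows and 0.02 for all genes tested, and 136 rows (67.3%) had a positive value, beside 52.0% of all genes.

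This small upward shift rested on single libraries. The median log2 fold change of the snoRNA rows was −0.02 without PRATA replicate 1, −0.02 without sham replicate 2 and 0.04 without sham replicate 3, and it was 0.60 without sham replicate 1. At an unadjusted p under 0.05, 2 of 207 rows were higher without PRATA replicate 1, beside 3.47% of all genes. Without sham replicate 3 it was 3 of 209, beside 3.76%, and without PRATA replicate 2 it was 13 of 206, beside 7.53%. The count was 15 of 202 without PRATA replicate 3, beside 5.55%, and 35 of 202 without sham replicate 1, beside 6.48%. With PRATA replicate 3 and sham replicate 1 both left out, 33 of the 188 rows tested were higher, beside 5.98% of all genes, and the median was 0.66. Box C/D rows, box H/ACA rows and rows of no class had medians of 0.16, 0.16 and 0.18.

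**Figure D2:**
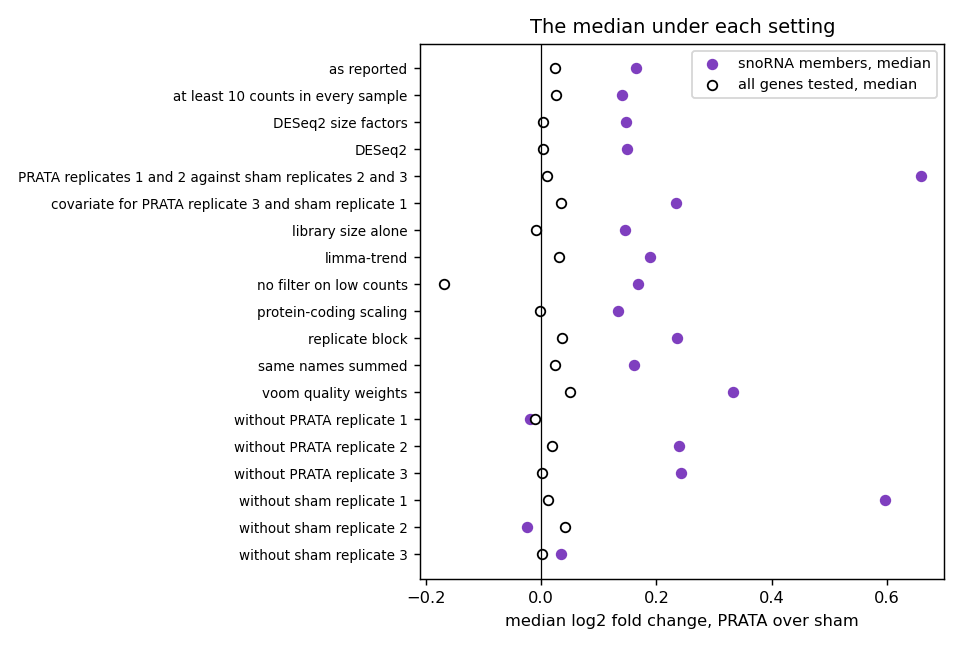
Median log2 fold change of PRATA over sham for the snoRNA rows (filled points) and for all genes tested (open points) under each setting. The snoRNA median runs from −0.02 without sham replicate 2 to 0.66 with PRATA replicates 1 and 2 against sham replicates 2 and 3, while that of all genes stays between −0.17 and 0.05.

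The rows with groups that did not overlap were few. In 6 rows all PRATA samples lay above all sham samples, beside 11.6% of all genes tested, and in 2 rows all lay below, beside 11.2%. Of the 6, 3 came from the SNORD115 and SNORD116 names, and AABR07065532.4 carries the name of a clone that also names many unnamed snoRNA rows. SNORD116 is the snoRNA cluster whose paternal loss is central to Prader-Willi syndrome, and SNORD115 has a guide sequence that pairs with the serotonin receptor transcript Htr2c.

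The SNORD116 row ENSRNOG00000054305 lay at 22.8, 14.3 and 33.1 CPM after PRATA and at 13.1, 7.65 and 5.76 CPM in the sham samples. The lowest PRATA sample was just above the highest sham sample, which was sham replicate 1. The log2 fold change was 1.39 ± 0.39 (SE, n = 3 and 3), with an adjusted p of 0.171 (edgeR quasi-likelihood, Benjamini-Hochberg). It kept a positive direction in all 17 alternatives that measured it, between 1.06 and 1.79, with adjusted p-values from 0.0206 in DESeq2 to 0.55. The other 3 SNORD116 rows also had positive fold changes of 0.41 ± 0.46, 0.65 ± 0.41 and 0.83 ± 0.48 (log2, SE), but their groups overlapped. In these 3 rows sham replicate 1 lay at 18.0 to 24.9 CPM and PRATA replicate 2 at 9.32 to 12.8 CPM. Counts of the 4 rows were close to each other within a sample, for example 177, 174, 177 and 166 in PRATA replicate 1. How the counting treated reads that map to several copies is not given in the sources used here, so the difference between the 4 rows is uncertain. Summed over all 16 rows of the name, SNORD116 lay at 90.9, 48.8 and 123 CPM after PRATA and 78.8, 44.0 and 28.3 CPM in the sham samples. The groups of the sum overlapped, and its log2 fold change was 0.80 ± 0.42, with an adjusted p of 0.334 (edgeR quasi-likelihood, Benjamini-Hochberg).

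SNORD115 gave 2 rows. ENSRNOG00000056852 lay at 9.17, 4.22 and 2.85 CPM after PRATA and at 1.45, 2.34 and 1.80 CPM in the sham samples, a log2 fold change of 1.54 ± 0.50. ENSRNOG00000058531 lay at 11.4, 2.95 and 2.69 CPM after PRATA and at 1.31, 2.34 and 2.36 CPM in the sham samples, a log2 fold change of 1.49 ± 0.62. In both, PRATA replicate 1 was far above the other 5 samples, and sham replicate 1 was the lowest. The adjusted p-values (edgeR quasi-likelihood, Benjamini-Hochberg) were 0.193 and 0.260. Without PRATA replicate 1 the log2 fold changes were 0.92 and 0.48, and neither row was then past an unadjusted p under 0.05. ENSRNOG00000058531 was also no longer past it without any 1 of the sham samples, with limma-trend, with voom or with the replicate number as a block (1.19), and ENSRNOG00000056852 was not past it without sham replicate 1.

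**Figure D3:**
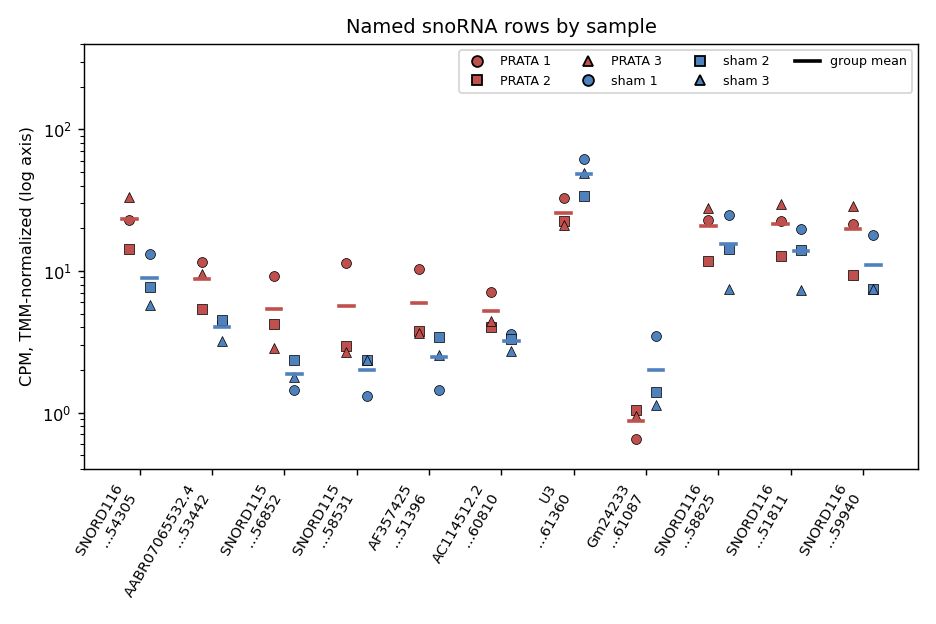
TMM-normalized CPM on a log axis in each sample (PRATA red, sham blue, replicate by symbol, group mean as a bar) for the 8 snoRNA rows with groups that do not overlap and the other 3 SNORD116 rows. PRATA replicate 3 is highest in all 4 SNORD116 rows, and U3 ENSRNOG00000061360 and Gm24233 lie lower after PRATA.

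The 2 SNORD115 rows did not stand for the whole name, because the copy that took the reads differed between samples. The table holds 15 SNORD115 rows, of which 13 missed the count rule. The 2 rows that met it held 84.1%, 81.1% and 16.5% of the SNORD115 counts after PRATA and 13.5%, 73.2% and 77.2% in the sham samples. In PRATA replicate 3 and sham replicate 1 alone, most reads lay on the other 13 rows, with 354 and 257 counts against 11 to 30 in the other 4 samples. One of these rows, ENSRNOG00000059788, had 137 counts in PRATA replicate 3 and 105 in sham replicate 1, against at most 3 in any of the others. Summed over all 15 rows, SNORD115 lay at 24.4, 8.84 and 33.5 CPM after PRATA and 20.5, 6.40 and 5.38 CPM in the sham samples. In the sum, sham replicate 1 was no longer the lowest sample but lay above PRATA replicate 2, so the groups overlapped. The log2 fold change of the sum was 1.02 ± 0.59, with an adjusted p of 0.380 (edgeR quasi-likelihood, Benjamini-Hochberg).

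The rows named after the clones AABR07065531 and AABR07065532 were looked at as a set after the values were seen. The table holds 37 snoRNA rows with these names, and 10 met the count rule. All 10 had a positive log2 fold change, beside 67.3% of the snoRNA rows and 52.0% of all genes tested. The median was 1.03 and the range was from 0.18 to 1.28. Of the 10, 1 row, AABR07065532.4, was past an unadjusted p under 0.05, near the 8.19% of all genes that were higher. Summed over the 37 rows, the level was 121, 41.8 and 98.6 CPM after PRATA and 71.9, 42.6 and 26.1 CPM in the sham samples. PRATA replicate 2 lay below sham replicates 1 and 2, so the groups of the sum overlapped. AABR07065532.4 lay at 11.5, 5.42 and 9.57 CPM after PRATA and at 4.35, 4.53 and 3.21 CPM in the sham samples. Its log2 fold change was 1.13 ± 0.34, with an adjusted p of 0.180 (edgeR quasi-likelihood, Benjamini-Hochberg), and it stayed between 0.87 and 1.39 in the 18 alternatives. The long noncoding row of the first clone, AABR07065531.26, lay at 83.8, 94.9 and 59.5 CPM after PRATA and at 47.3, 12.8 and 21.4 CPM in the sham samples, with a log2 fold change of 1.53 ± 0.44. Its groups did not overlap either. The protein-coding genes that are known neighbours of the SNORD115 and SNORD116 cluster had log2 fold changes of 0.43 ± 0.24 for Snurf, 0.35 ± 0.29 for Snrpn, 0.50 ± 0.22 for the imprinted Ndn and −0.23 ± 0.17 for the ubiquitin ligase Ube3a. The files give no coordinates, so the place of the clones in the genome is not stated here.

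Markers of more than one cell type differed in the direction of these neuronal snoRNA names. All 13 sensory neuron markers had a positive log2 fold change, with a median of 0.56, and 4 of the 13 were higher at an unadjusted p under 0.05, beside 8.19% of all genes. Their summed level was 10540 to 15850 CPM after PRATA and 7091 to 10690 CPM in the sham samples, so the groups overlapped. All 5 Schwann cell markers also had a positive log2 fold change, with a median of 0.80, and 1 of them was higher at an unadjusted p under 0.05. Their summed level was 787, 1292 and 747 CPM after PRATA and 702, 654 and 534 CPM in the sham samples, so these sums did not overlap. All 6 satellite glial markers had a negative log2 fold change, with a median of −0.52, and none passed an unadjusted p under 0.05. The part of these markers in the SNORD115 and SNORD116 values was not tested.

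The remaining rows with groups apart had lower counts or one sample far from the others. AF357425 lay at 10.3, 3.75 and 3.64 CPM after PRATA and at 1.45, 3.43 and 2.55 CPM in the sham samples. PRATA replicate 1 stood apart, and the log2 fold change of 1.26 ± 0.53 was 0.58 and no longer past an unadjusted p under 0.05 without it. The row also missed that threshold without sham replicate 1, without sham replicate 3, with PRATA replicate 3 and sham replicate 1 both left out, with library size alone, with limma-trend and with the replicate number as a block. AC114512.2 lay at 7.10, 3.98 and 4.43 CPM after PRATA and at 3.59, 3.28 and 2.74 CPM in the sham samples, with a log2 fold change of 0.68 ± 0.34. Gm24233 lay at 0.645, 1.04 and 0.949 CPM after PRATA and at 3.46, 1.41 and 1.13 CPM in the sham samples, and sham replicate 1 held 50 counts against 9 and 12 in the other sham samples. Its log2 fold change was −1.19 ± 0.56. The adjusted p-values of these 3 rows (edgeR quasi-likelihood, Benjamini-Hochberg) were 0.260, 0.325 and 0.303.

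U3 had 7 rows, including Rnu3a, and 5 met the count rule. One copy was lower after PRATA: ENSRNOG00000061360 lay at 32.7, 22.6 and 21.2 CPM after PRATA and at 61.4, 33.7 and 49.4 CPM in the sham samples. Every sham sample was above every PRATA sample, and the log2 fold change was −0.93 ± 0.27, with an adjusted p of 0.175 (edgeR quasi-likelihood, Benjamini-Hochberg). Over the 17 alternatives that measured this copy, its adjusted p (Benjamini-Hochberg) ran from 0.0353 to 0.55. With PRATA replicate 3 and sham replicate 1 left out, the log2 fold change was −0.61 and no longer past an unadjusted p under 0.05. Another copy, ENSRNOG00000053959, went the other way, at 178, 122 and 61.8 CPM after PRATA and 83.5, 54.0 and 57.5 CPM in the sham samples. Its groups overlapped, and its log2 fold change was 0.89 ± 0.36, past an unadjusted p under 0.05 with an adjusted p of 0.253 (edgeR quasi-likelihood, Benjamini-Hochberg). Summed over the 7 rows, U3 lay at 592, 456 and 520 CPM after PRATA and 627, 345 and 233 CPM in the sham samples. Sham replicate 1 was the highest of all 6 samples and the other sham samples were the lowest. The sum was fitted over the rows named U3 only, without Rnu3a. Its log2 fold change was 0.32 ± 0.32, with an adjusted p of 0.614 (edgeR quasi-likelihood, Benjamini-Hochberg).

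The copies of U3 shared the reads differently from sample to sample. ENSRNOG00000055743 held 21.9%, 32.5% and 47.9% of U3 counts after PRATA and 45.0%, 50.0% and 16.6% in the sham samples. Rnu3a was highest in PRATA replicate 3 and sham replicate 1, at 125 and 107 CPM, against 16.7 to 65.0 CPM in the other 4 samples. The U3 copies are near-identical genes, so which copy a read was given to is uncertain, and the sum is the value less touched by that.

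**Figure D4:**
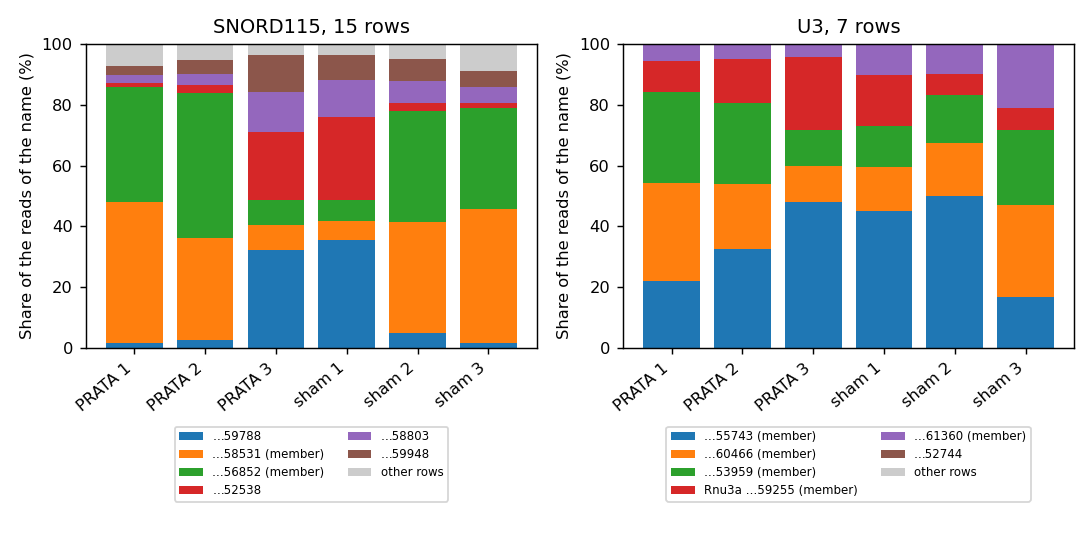
Share of the counts of one snoRNA name that lay on each of its rows, in percent, in each sample, for SNORD115 (15 rows) and U3 (7 rows), with the rows outside the 6 largest in grey. The 2 SNORD115 rows that met the count rule (orange and green) hold 73.2% to 84.1% in 4 samples and 13.5% to 16.5% in PRATA replicate 3 and sham replicate 1.

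The other snoRNAs that act in cleavage of the ribosomal RNA precursor did not part the groups. U8, which acts in the maturation of 28S and 5.8S ribosomal RNA, lay at 26.2, 15.6 and 14.5 CPM after PRATA and at 17.8, 11.1 and 10.5 CPM in the sham samples, with a log2 fold change of 0.50 ± 0.31. The main SNORD14 row, U14, lay at 19.4, 11.9 and 15.9 CPM after PRATA and at 23.3, 8.90 and 9.64 CPM in the sham samples. Sham replicate 1 was the highest sample for U14 and PRATA replicate 1 for U8. The box H/ACA snoRNA SNORA73 (U17) had a sum over 9 rows of 45.4, 50.6 and 47.7 CPM after PRATA and 58.1, 40.4 and 42.3 CPM in the sham samples, and a log2 fold change of 0.03 ± 0.19. The names SNORA70 and SNORA71 had summed log2 fold changes of 0.21 ± 0.28 and 0.43 ± 0.34, and none of these 5 names was past an unadjusted p under 0.05.

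PRATA replicate 3 and sham replicate 1 shared a pattern that crossed the groups. Both lay above the other 4 samples in 39 of the 202 rows tested, beside 6.06% of all genes tested, and both below in 10, beside 4.6%. Over all 209 rows, the ratio of their mean CPM to that of the other 4 samples was at least 2 in 42 and at most 0.5 in 10. The highest ratio, 13.8, was that of AABR07029442.1, with 18, 8 and 192 counts after PRATA and 411, 10 and 19 counts in the sham samples. Next came AABR07065531.15, with a ratio of 7.14, and SNORD36 rows with ratios of 5.11 and 4.82. The 6 SNORD36 rows together lay at 12.97 CPM in PRATA replicate 3 and 23.1 CPM in sham replicate 1, against 3.27 to 5.55 CPM in the other 4 samples. In the opposite direction, AABR07061382.3 had 8 counts in PRATA replicate 3 and 10 in sham replicate 1, against 91 and 34 in the other PRATA samples and 12 and 81 in the other sham samples, a ratio of 0.11. Gm26175, AC096601.2 and a second SNORD22 row (ENSRNOG00000057313) followed, with ratios of 0.234, 0.317 and 0.373. These ratios describe the samples, which were singled out because of earlier results on these data.

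Other RNA classes differed in these 2 samples as well. Rows of the biotype misc_RNA held 6.59% of counts in PRATA replicate 3 and 7.0% in sham replicate 1, against 3.33% to 4.07% in the other 4 samples, and protein-coding genes held 82.9% in both, against 86.6% to 89.5%. Markers of other cell types differed too. Of 5 fibroblast markers measured, 4 lay above the other 4 samples in both, and their sums were 1975 and 1818 CPM against 323 to 971 CPM. Of 5 macrophage markers, 3 did so, with sums of 81.5 and 64.4 CPM against 17.4 to 42.9 CPM. The part of these differences in the snoRNA values was not tested. A term for these 2 samples in the edgeR fit gave 9 of 202 snoRNA rows higher and 1 lower at an unadjusted p under 0.05. Of all genes, 7.4% were higher and 9.56% lower in that fit. The median log2 fold change of the snoRNA rows was 0.23.

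The genes of the proteins that bind snoRNAs were lower after PRATA as far as the box C/D core and the U3-specific Rrp9 are concerned. All 5 of these genes were lower at an unadjusted p under 0.05, beside 10.1% of all genes tested, and all 5 had groups that did not overlap. Fbl, which encodes the methyltransferase fibrillarin, lay at 17.4, 17.8 and 24.4 CPM after PRATA and at 48.2, 36.1 and 58.6 CPM in the sham samples. Its log2 fold change was −1.26 ± 0.24, with an adjusted p of 0.156 (edgeR quasi-likelihood, Benjamini-Hochberg), the smallest that any gene reached in that fit. Over the 18 alternatives with edgeR, DESeq2 or limma, its adjusted p (Benjamini-Hochberg) ran from 0.000847 to 0.55. That of Snu13 ran from 0.0376 to 0.562, and the other genes of the 5 had minima between those of Fbl and Snu13. The shares of all genes under 0.05 in those fits were not counted. Rrp9, the U3-specific protein, Nop58 and Nop56, the scaffold proteins of the particle, and Snu13, which binds the kink-turn of the RNA, had log2 fold changes of −1.17 ± 0.23, −1.02 ± 0.24, −0.92 ± 0.18 and −0.81 ± 0.27. The summed level of the 5 genes was 266, 262 and 254 CPM after PRATA and 509, 406 and 657 CPM in the sham samples, while the box C/D snoRNA rows summed to 1554, 1196 and 1275 CPM after PRATA and 1606, 902 and 773 CPM in the sham samples. The sums of the protein genes did not overlap and those of the snoRNAs did.

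Of the 4 box H/ACA core genes, Gar1 alone was lower at an unadjusted p under 0.05, with 10.1, 12.2 and 8.54 CPM after PRATA, 25.8, 15.1 and 25.0 CPM in the sham samples and a log2 fold change of −1.10 ± 0.26. Dkc1, the gene of the pseudouridine synthase dyskerin, was at −0.64 ± 0.30, Nhp2 at −0.63 ± 0.35 and Nop10 at −0.20 ± 0.24, and their groups overlapped. Of 17 assembly genes measured, 8 were lower at an unadjusted p under 0.05 and 0 were higher, beside 10.1% and 8.19% of all genes tested. Among the 8 were Nufip1 and Znhit6 of the box C/D assembly machinery, at −0.65 ± 0.19 and −0.55 ± 0.18, and Naf1 and Shq1, which assist box H/ACA assembly, at −0.83 ± 0.26 and −0.85 ± 0.35. None of these passed an adjusted p under 0.05 in the main edgeR fit. Over the 18 alternatives, the adjusted p (Benjamini-Hochberg) ran from 0.0149 to 0.55 for Gar1 and from 0.0453 to 0.681 for Dkc1. Over the 26 core and assembly genes, with Rrp9 counted among the core, the median log2 fold change was −0.64. Of these, 14 were lower at an unadjusted p under 0.05, beside 10.1%. That count was 7 without sham replicate 3 and 8 without PRATA replicate 2, beside 5.57% and 7.86% of all genes. With PRATA replicate 3 and sham replicate 1 both left out, 8 were lower, beside 6.9%.

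Genes known to carry snoRNAs in their introns also lay lower after PRATA. Of a list of 60, 46 names were in the table, and Gas5 and Snhg1 were not matched by name. Of the 49 rows tested, 23 were lower and 1 was higher at an unadjusted p under 0.05, beside 10.1% and 8.19% of all genes tested. The median log2 fold change was −0.47, and 28 rows had every PRATA sample below every sham sample, beside 11.2% of all genes. Most of the list encodes ribosomal proteins and translation factors. The count of lower genes fell to 13 without PRATA replicate 1 and to 13 without sham replicate 3, beside 5.44% and 5.57% of all genes. Wdr43, a ribosome assembly factor, the translation factor Eif4a1 and nucleolin (Ncl) had log2 fold changes of −0.96 ± 0.22, −0.79 ± 0.20 and −0.94 ± 0.25. A positive log2 fold change was found in 6 of the 49 rows. Snhg11, the 1 row higher at an unadjusted p under 0.05, lay at 75.1, 57.4 and 50.1 CPM after PRATA. In the sham samples it lay at 29.5, 15.0 and 18.4 CPM. Its log2 fold change was 1.53 ± 0.29, with an adjusted p of 0.156 (edgeR quasi-likelihood, Benjamini-Hochberg).

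For 22 snoRNA rows, exactly 1 protein-coding gene spanned the snoRNA of the same name in the RefSeq gene table (GRCr8), on either strand, so pairs of snoRNA and spanning gene could be set side by side. Of the 22 spanning genes, 20 had a negative log2 fold change and 8 were lower at an unadjusted p under 0.05, beside 10.1% of all genes tested, with a median of −0.40. Of the 22 snoRNAs, 10 had a negative value and 0 passed an unadjusted p under 0.05 (edgeR quasi-likelihood test), with a median of 0.02. The snoRNA value lay above that of its spanning gene in 17 of the 22 pairs. The standard errors of the snoRNAs reached 0.94, and in 18 pairs the value of the spanning gene lay within 2 standard errors of that of the snoRNA.

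In 2 of the 22 pairs the ratio of snoRNA to spanning gene did not overlap between the groups, with PRATA higher in both. By level, 11.6% of all genes tested lay apart in that direction, so 2 of 22 is near that share. Snora23, inside the importin gene Ipo7, had log2 ratios of −1.17, −1.43 and −1.93 after PRATA and −2.59, −2.31 and −2.82 in the sham samples. The snoRNA changed by 0.30 ± 0.19 and Ipo7 by −0.80 ± 0.20 (log2, SE). Snord87, inside Mcmdc2, had log2 ratios of 3.28, 3.0 and 2.13 after PRATA and 1.84, 1.87 and 0.96 in the sham samples. With 3 samples against 3, an exact two-sided permutation test cannot give a p below 0.1, which is its value for both ratios. In other pairs sham replicate 1 lay among or above the PRATA samples. For Snord57 inside Nop56 the log2 ratio was −5.10, −7.64 and −5.07 after PRATA and −4.51, −7.78 and −7.81 in the sham samples. For Snord100 inside Rps12 it was −3.92, −4.13 and −4.0 after PRATA and −3.61, −5.58 and −5.83 in the sham samples. In both pairs the ratio was highest in sham replicate 1, and the remaining sham samples lay below every PRATA sample.

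**Figure D5:**
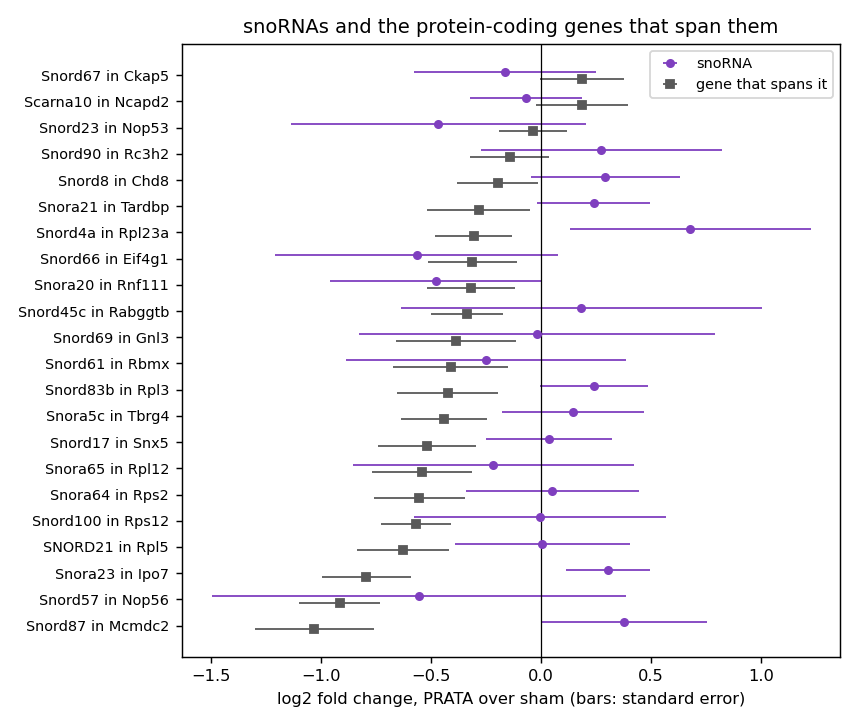
Log2 fold change of PRATA over sham with its standard error for 22 snoRNAs (circles) and the protein-coding genes that span them in RefSeq (squares), ordered by the value of the spanning gene. The squares lie left of 0 in 20 pairs, with a median of −0.40, while the circles scatter around 0, with a median of 0.02 and wider bars.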

How the data were processed

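RNA-seq of isolated L1-L2 DRG neurons was analysed in 3 PRATA and 3 sham samples. The authors deposited raw whole-number counts per gene, without normalization. Their methods name HISAT2, StringTie and Cuffdiff, and the submitters' processing notes name STAR 2.7.3a, RSEM and DESeq2. Which of them made the counts, and with which build, annotation, strand setting and rule for multi-mapping reads, is not given in the sources used here. Counts were fitted with edgeR 4.0.16 (R 4.3.3) over the whole table, with filterByExpr (minimum count 10, minimum total 15), which kept 14919 genes, TMM, the two-sided quasi-likelihood test without a covariate and Benjamini-Hochberg adjustment. limma 3.58.1 and DESeq2 1.42.0 served as alternatives, and the fits were tested on simulated data. Floors of 3 counts cover counting error only.

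The members and gene lists were chosen with earlier results of these data known. Named rows were the 8 with the most counts, those with groups apart (up to 8 each way), the 4 each way with the most extreme ratio of PRATA replicate 3 and sham replicate 1, the U3, U8, U14, U17, SNORD115 and SNORD116 names, rows at the edge of the rule, names with 3 or more rows, the core protein genes, and the host genes Gas5, Snhg1 and 4 with the smallest p. Other genes were named after their values were seen. Rows of one name were also summed before the fit. snoRNA sequences and genome positions were not analysed here.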

Additional observations from a re-analysis of the deposited data

How the results depend on the processing

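Sham replicate 2 had the lowest depth, where 3 counts corresponded to 0.509 CPM. The median of the snoRNA rows was reversed without PRATA replicate 1 (−0.0182) and without sham replicate 2 (−0.0235), and leaving out 1 sample at a time gave medians from −0.0235 to 0.597. The same series of fits gave 2 to 35 rows higher and 1 to 3 lower at an unadjusted p under 0.05. Of all genes, 3.47% to 13.4% were higher and 5.44% to 14.1% lower in these fits. Past the fold limit too, 1 to 18 rows were higher and 0 to 2 lower, beside 101 to 361 and 383 to 673 of all genes. At the unadjusted threshold, 7 to 16 core and assembly genes were lower, with medians from −0.76 to −0.446, and 13 to 26 host genes. With PRATA replicates 1 and 2 against sham replicates 2 and 3, 33 rows were higher (19 past the fold limit) and 0 lower. Beside them, 5.98% of all genes were higher and 6.9% lower. The median was 0.658, and the log2 ratio of the summed level was 0.608 against 0.186 as reported. In that fit 8 core and assembly genes and 15 host genes were lower. limma-trend gave 3 rows higher (2 past the fold limit), beside 8.39% of all genes higher. voom with sample weights gave 13 (12), beside 15.6%, and 35 host genes lower, beside 15.3% lower. No filter on low counts gave 10 rows higher, beside 5.34%. Rows of one name summed gave 3 higher (2) and 0 lower, beside 8.54% and 10.4%. The causes of these differences were not tested, except that the fits without a sample hold fewer samples.

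Replicate numbers did not pair the samples: same-numbered samples deviated from their group means with correlations of −0.355, −0.0511 and −0.349. With the replicate number as a block, 5 rows were higher and 1 lower, beside 4.16% and 6.08% of all genes. The median was 0.236, and 13 host genes were lower. Among the named rows, SNORD115 ENSRNOG00000058531 and AF357425 were not past an unadjusted p under 0.05 with the block.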

Other observations

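Other small RNA classes of the same table were looked at in the same way, after the snoRNA values were seen. Of 16 small Cajal body RNA rows tested, which guide modification of spliceosomal RNAs, 0 passed an unadjusted p under 0.05 (edgeR quasi-likelihood test), and their summed level was 324, 290 and 287 CPM after PRATA and 378, 229 and 241 CPM in the sham samples. The order, with sham replicate 1 highest and the other sham samples lowest, was that of the snoRNAs. The 95 small nuclear RNA rows tested also had 0 past that threshold, with sums of 13790, 11790 and 13870 CPM after PRATA and 17720, 8323 and 10700 CPM in the sham samples. Of all genes tested, 8.19% were higher and 10.1% lower at that threshold.

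The RNA parts of ribonucleases P and MRP, which process transfer RNA and ribosomal RNA precursors, showed a difference between copies. Rpph1, the gene of the RNase P RNA, had 14836, 29248 and 34772 counts after PRATA and 49657, 10111 and 20830 counts in the sham samples. A second row, named RNaseP_nuc, had 10, 45 and 6038 counts after PRATA and 7652, 5 and 21 counts in the sham samples. PRATA replicate 3 and sham replicate 1 thus held nearly all reads of the second row, as they did for the SNORD115 rows outside the count rule. Several 7SK copy rows behaved alike, though not all of them. The copy row with the most counts had 49, 70 and 3963 counts after PRATA and 5281, 19 and 56 counts in the sham samples. The main 7SK row lay between 4403 and 6503 CPM in all 6 samples. RNase_MRP had no such split, at 456, 581 and 543 CPM after PRATA and 756, 354 and 452 CPM in the sham samples.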
